A study of Rattus norvegicus with 12 samples.

Results

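A set of 10 genes, out of 17379 measured features, was picked as setting apart the hematoma of a normally healing rat femoral defect (normal). For 6 of them, all 3 normal libraries lay at least 4-fold from all 9 other libraries. For Myo5b, normal and other libraries overlapped. The 10 genes were chosen by their measured levels in these hematoma libraries, because the 3 normal libraries stood far from delayed and nonunion. Their difference from normal is therefore described below and no test of it is reported. Mboat7, Ndufa10l1, Tmem158 and Entpd3 were high in normal hematoma, and Klkb1, Cyp11b1, Rsph14, Ccdc169, Sec31b and Myo5b were low or absent there.

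RNA was sequenced from 12 libraries of male SAS Fischer rats of 200 to 225 g, in 4 groups of 3. The hematoma groups came from femoral defects of 0.5 mm (normal), 1.5 mm (delayed) and 5.0 mm (nonunion), and the preOP group is untreated femur, the bone piece cut out when a 5.0 mm defect was made. The labels do not say whether libraries of a group come from separate animals, so any p-value measures the spread between libraries, which may be technical. In such bulk tissue, fewer cells of a type and less RNA per cell cannot be told apart.

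A fracture hematoma is the clot that fills a bone defect, in which inflammatory cells and, later, cells that form cartilage and bone gather. The 10 genes belong to no common pathway. They encode a protease of the contact system, a phospholipid-remodelling enzyme, a relative of a mitochondrial complex I subunit, an ATP-degrading surface enzyme, a steroid hydroxylase, an axonemal protein, a coat protein, a motor protein, a Ras-responsive membrane protein and a coiled-coil protein.

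Libraries held 16808984 to 24325144 estimated reads. Levels are given as reads as deposited (rounded), as deposited TPM (transcript abundance scaled to a fixed total after division by length), and as CPM (reads of a gene scaled to a fixed total, with TMM). TMM is a scaling that keeps a few very abundant RNAs from lowering all others. Nonunion 2 stood apart with a TMM factor of 0.2668, and delayed 2 and nonunion 2 carried the highest sums of skeletal muscle genes (25490 CPM) and adipocyte genes (8154 CPM) among the libraries. The files of the normal group also had another form: only 16.82% to 18.1% of their read numbers were written with a decimal point, against 100% in the 9 other files. This form and the normal group cannot be told apart.

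The stretch around the annotated start of 3 genes is shown because they bound the set: Klkb1 had the largest gap of the genes low in normal, Mboat7 the largest of those high in normal, and the locus of Tmem158 is as long as its transcript. Sequences are from RefSeq on GRCr8, 250 bases before to 50 after the start, which is a later build than the rn6 named by the submitters. Capitals mark any of 3 motifs searched on both strands, none of which overlaps another. The first motif was TATAAA, the usual TATA box. The second was CCAAT, known as the CCAAT box. The third was GGGCGG, known as the GC box. Klkb1 lies at chr16:53690976-53691275 on the plus strand, Mboat7 at chr1:74440368-74440667 on the plus strand and Tmem158 at chr8:131792086-131792385 on the minus strand.
Klkb1: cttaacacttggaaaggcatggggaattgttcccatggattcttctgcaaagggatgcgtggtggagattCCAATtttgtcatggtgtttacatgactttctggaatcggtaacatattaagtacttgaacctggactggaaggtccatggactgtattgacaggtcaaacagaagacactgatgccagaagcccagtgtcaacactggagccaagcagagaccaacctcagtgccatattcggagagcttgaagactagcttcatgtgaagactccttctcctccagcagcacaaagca
Mboat7: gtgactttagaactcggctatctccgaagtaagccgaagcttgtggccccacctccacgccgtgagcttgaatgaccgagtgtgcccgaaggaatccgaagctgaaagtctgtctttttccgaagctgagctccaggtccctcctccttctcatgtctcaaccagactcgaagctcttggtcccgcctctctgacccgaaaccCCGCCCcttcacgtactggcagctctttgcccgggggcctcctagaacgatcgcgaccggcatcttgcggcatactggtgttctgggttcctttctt
Tmem158: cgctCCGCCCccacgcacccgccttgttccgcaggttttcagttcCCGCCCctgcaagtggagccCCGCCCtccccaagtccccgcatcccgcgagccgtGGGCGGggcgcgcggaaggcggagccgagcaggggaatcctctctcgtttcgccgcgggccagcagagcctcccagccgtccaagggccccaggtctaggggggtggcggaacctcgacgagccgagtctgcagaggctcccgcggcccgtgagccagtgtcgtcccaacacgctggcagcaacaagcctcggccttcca

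The Klkb1 stretch held 1 CCAAT, the Mboat7 stretch 1 GGGCGG and the Tmem158 stretch 4 GGGCGG. Of 33469 rat promoters of this length, 37.5% held CCAAT, 33.1% held GGGCGG and 14.2% held TATAAA. Promoters were matched for 8 of the 10 genes, all but Ndufa10l1 and Cyp11b1. Their G and C content ran from 44.33% (Rsph14) to 78.67% (Myo5b), against a median of 51.67% over all promoters, so the set had no common base composition.

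Mboat7 encodes an acyltransferase that attaches arachidonic acid to lysophosphatidylinositol. Its transcript NM_001134978 (2303 bases) had 1082, 629 and 1070 reads in normal hematoma, 4, 0 and 2 in delayed, 0, 0 and 2 in nonunion and 2, 4 and 0 in preOP. In TPM it stood at 32.8, 16.7 and 31.8 in normal and at no more than 0.101 in any other library. Every normal library was thus far above every other library. Few or no reads were assigned to this transcript in preOP bone, as in the non-normal hematomas. The mean in normal was 47.0 ± 7.94 CPM (SD, n = 3). Pooled reads in normal over preOP gave a ratio of 457, with an exact binomial 95% interval of 210 to 1247 that covers counting error only. These reads are rounded estimates, and the interval does not cover the division of shared reads described next.

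The on-off pattern of Mboat7 did not extend to the transcript it shares reads with. Salmon, the quantifier named by the submitters, splits a read that matches several transcripts into fractions, so 2 transcripts that share reads can have fractional numbers that add up to a whole. Mboat7 was not whole in 5 of the 9 files outside normal, and in those 5 its sum with NM_001313940, a transcript with no gene name in the reference used here, was whole. It was not whole in the 3 normal files either, whose 6 significant digits are too few for the same tolerance. There its sums with NM_001313940 were 1291.0, 1139.0 and 1083.999, whole within the rounding of those digits. The partner NM_001313940 had 209, 510 and 14 reads in normal, 1676, 366 and 1182 in delayed, 1115, 193 and 857 in nonunion and 582, 612 and 479 in preOP. Mboat7 took 83.79%, 55.25% and 98.69% of the pair's reads in the 3 normal libraries and at most 0.685% in any other library.

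Summed, the pair stood at 61.1 ± 10.9 CPM in normal, 43.7 ± 23.1 in delayed, 36.5 ± 7.22 in nonunion and 29.1 ± 0.360 in preOP (SD, n = 3 each). The sum in delayed was 0.715 times that in normal with overlapping libraries. It was 0.597 times normal in nonunion and 0.477 times normal in preOP, where no library overlapped normal. The near on-off difference of Mboat7 was thus one in the division of the pair's reads, and the summed level differed far less. Whether the division differed in the tissue or in the quantification of the normal files was not tested.

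Ndufa10l1 is named as a relative of Ndufa10, an accessory subunit of mitochondrial complex I. Its transcript NM_182671 (1434 bases) fills its whole annotated locus, which therefore shows no intron. It had 200, 269 and 361 reads in normal hematoma, 0, 1 and 0 in delayed and no reads in nonunion or preOP. The TPM were 10.2, 11.9 and 17.9 in normal and at most 0.0787 elsewhere, so normal and the other groups did not overlap. Against 3 reads per library in preOP, the normal group was at least 77.1-fold higher.

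Ndufa10 itself was abundant in all groups, with 1656, 2624 and 1942 reads in normal, 1984, 4610 and 1851 in delayed, 2261, 641 and 2456 in nonunion and 1589, 1532 and 1070 in preOP. In the single library outside normal where Ndufa10l1 had a read, delayed 2, its fractional number and that of Ndufa10 added up to a whole. In the 3 normal files these numbers added up to 1856.004, 2893.003 and 2302.995, whole within the rounding of their 6 significant digits. Ndufa10l1 made up 10.8%, 9.29% and 15.7% of the summed reads in normal. The sum stood at 125 ± 45.7 CPM in normal, 130 ± 93.7 in delayed, 96.6 ± 6.38 in nonunion and 72.2 ± 6.22 in preOP (SD, n = 3 each), and normal overlapped both other hematoma groups. In edgeR's quasi-likelihood test with Benjamini-Hochberg adjustment over all genes, Ndufa10 was not called in delayed (log2 fold change 0.21, SE 0.45, adjusted p = 0.802) or nonunion (-0.24, SE 0.45, adjusted p = 0.806) against normal.

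**Figure D1:**
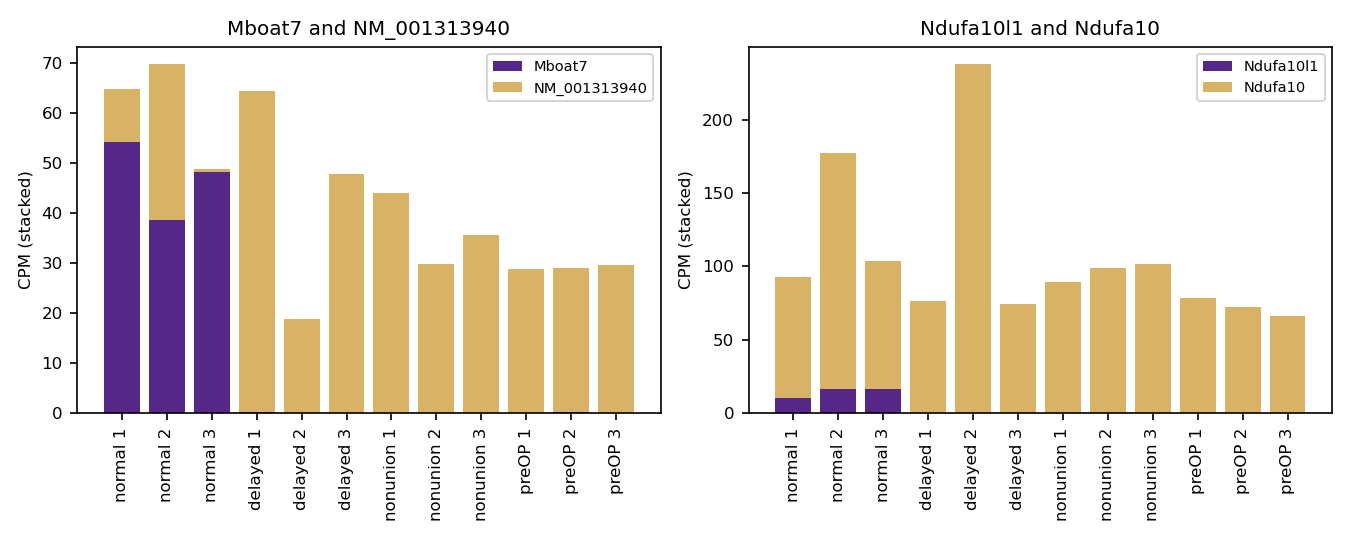
Stacked CPM of Mboat7 with NM_001313940 (left) and of Ndufa10l1 with Ndufa10 (right) in each of the 12 libraries; the dark part of each bar is the gene that was high in normal. The dark part is seen only in the 3 normal libraries, while the whole bars of normal overlap those of delayed in both panels.

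Tmem158 encodes a membrane protein known in human cells from Ras-induced senescence. Its transcript NM_057212 (999 bases) had 253, 95 and 169 reads in normal, none in delayed, 2, 2 and 1 in nonunion and 0, 0 and 2 in preOP. In TPM the normal libraries stood at 19.9, 6.39 and 12.7 and the others at no more than 0.157. All 3 normal libraries were above all others. Its reads were whole in each of the 9 files outside normal, but with at most 2 reads per library this says little about sharing of reads. They were also whole, to the digits given, in the 3 normal files.

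Entpd3 encodes a surface enzyme that degrades extracellular ATP and ADP. Its transcript NM_178106 (3087 bases) had 234, 223 and 500 reads in normal hematoma, 2, 0 and 0 in delayed, 3, 1 and 4 in nonunion and 56, 59 and 32 in preOP. The TPM were 5.13, 4.30 and 10.8 in normal and 0.902, 0.908 and 0.513 in preOP. Entpd3 was thus the gene of the 4 for which bone lay between the normal hematoma and the other hematomas, with no overlap on either side. It was lower in delayed than in preOP by edgeR (log2 fold change -6.21, SE 0.74, adjusted p = 0.000309) and lower in nonunion than in preOP (-4.07, SE 0.65, adjusted p = 0.0013). The low delayed and nonunion values took part in picking Entpd3, so these p-values are not free of that choice. By pooled reads, preOP was 89.5-fold above delayed (exact binomial 95% interval 24.3 to 746) and 17.8-fold above nonunion (8.81 to 42.1). Normal was 6.42-fold above preOP (5.39 to 7.69). These intervals cover counting error only, not the spread between libraries, which ran from 11.7 to 22.5 CPM in normal and 1.97 to 2.78 CPM in preOP.

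The summed markers of bone-forming and of cartilage cells were also highest in normal hematoma. The 8 osteoblast and osteocyte markers, all 8 measured and none at 0 in a whole group, summed to between 18400 and 27550 CPM in normal hematoma. The same sum was 4176 to 15480 CPM in the delayed libraries, 4244 to 5260 for nonunion and 2235 to 2501 for bone. The 4 chondrocyte markers, all measured and none at 0 in a whole group, summed to between 180.1 and 439.5 CPM in normal and to at most 53.9 in the other groups. Single markers could differ from the sum: the osteoblast gene Bglap stood at 79.8, 84.7 and 68.8 CPM in normal, at most 1.75 in the other hematomas, and at 232, 259 and 190 CPM in preOP. The part of these cells in the levels of Tmem158, Entpd3, Mboat7 and Ndufa10l1 was not tested.

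Klkb1 encodes plasma prekallikrein, the precursor of the protease that releases bradykinin from kininogen, and is made chiefly by the liver. Its transcript NM_012725 (2513 bases) had no read in any of the 3 normal libraries. It had 1467, 532 and 784 reads in delayed, 370, 159 and 610 in nonunion and 478, 394 and 283 in preOP, with 33.0, 16.2 and 21.6 TPM in delayed, 9.86, 2.60 and 16.0 in nonunion and 9.74, 7.68 and 5.73 in preOP. Every library but the normal ones held this transcript, bone included. RefSeq on GRCr8 lists 4 transcripts of Klkb1 and the deposited files hold 1, so a change of transcript could not be followed. Klkb1 was the only one of 17379 features with no reads in all 3 libraries of normal and at least 10 in each other library, and no feature showed this for delayed, nonunion or preOP. Its reads were whole in all 9 files outside normal. Against 3 reads per normal library, preOP was at least 108-fold higher.

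Of 8 hepatocyte markers, all measured, the summed level lay between 0.901 and 1.78 CPM in the normal libraries and between 0.980 and 1.84 CPM in the delayed ones, which overlap. It was 0.662 to 36.5 CPM for nonunion, highest in nonunion 2, and 3.88 to 7.69 CPM for bone. Fga was at 0 in every library. Alb, Ttr and Ahsg were also at 0 in all normal libraries, and Ttr in all nonunion libraries. Fgb went the other way, at 0 in all delayed, nonunion and preOP libraries but not in all normal ones. Outside normal, Alb had 235 reads in nonunion 2 and at most 1 read in any other library. Among genes of the contact system and kinin pathway, 8 of the 15 other genes listed could be tested against normal. Kng2, a kininogen, fell in delayed (log2 fold change -4.12, SE 1.02, adjusted p = 0.045), from 29, 12 and 41 reads in normal to 1, 3 and 1, a call lost without any 1 of the normal or delayed libraries (adjusted p = 0.0555 to 0.135, with values of -4.91 to -3.80), without the filter on low counts and with the replicate block. In nonunion edgeR called none of the 8, while DESeq2 called Kng2 (log2 fold change -4.30, adjusted p = 0.011). The median log2 fold change of those 8 was -0.06 in delayed and -0.12 in nonunion, against 0.02 and -0.03 over all genes tested. The closest relative, F11, was not analysed here.

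The gene next to Klkb1 went the other way. Cyp4v3, a cytochrome P450 of fatty acids, lies before Klkb1 on the opposite strand in the RefSeq GRCr8 order, with 1 annotated pseudogene between them. It had 1098, 751 and 1071 reads in normal, 147, 104 and 78 in delayed, 73, 28 and 89 in nonunion and 108, 106 and 71 in preOP. All normal libraries were above all others. Cyp4v3 fell in delayed (log2 fold change -3.42, SE 0.32, adjusted p = 0.00213) and in nonunion (-3.86, SE 0.33, adjusted p = 0.00155), and it was called in all 13 alternatives run for each comparison. Across all genes, 7.13% were called in delayed against normal (2.68% higher and 4.45% lower) and 2.37% in nonunion against normal (0.89% higher and 1.48% lower).

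On either side of Mboat7 lie Tsen34 and Tmc4. Tmc4, a channel-like gene directly after Mboat7 on the same strand, had 2, 4 and 4 reads in normal, 99, 18 and 38 in delayed, 24, 3 and 15 in nonunion and 22, 20 and 6 in preOP. It rose in delayed (log2 fold change 3.55, SE 0.73, adjusted p = 0.0259), a call lost without normal 1, 2 or 3 or delayed 1 or 3, where the value was 2.78 to 3.84, and with the replicate block (3.30, adjusted p = 0.0586), and it was not called in nonunion (1.91, SE 0.72, adjusted p = 0.177). Tsen34, a tRNA-splicing endonuclease subunit on the other side, fell in delayed (-1.43, SE 0.36, adjusted p = 0.0458) and kept its call in 1 of 13 alternatives. Of the 20 nearest measured neighbours of the 10 genes, no other was called by edgeR against normal in either comparison, and Mtnr1a, Ly6d, Cyp11b3, Gnaz and Wnt8b were too low to be tested. The locus of Gnaz overlaps that of Rsph14 and the locus of Wnt8b overlaps that of Sec31b, each on the opposite strand. The strand setting of the counting is not given in the sources used here. Whether the transcripts of each pair share sequence or reads was not tested. Sec31b reads were whole in every file outside normal. Rsph14 was not whole in 2 files outside normal, and its sum with Sp100, not Gnaz, was whole in 1 of them.

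**Figure D2:**
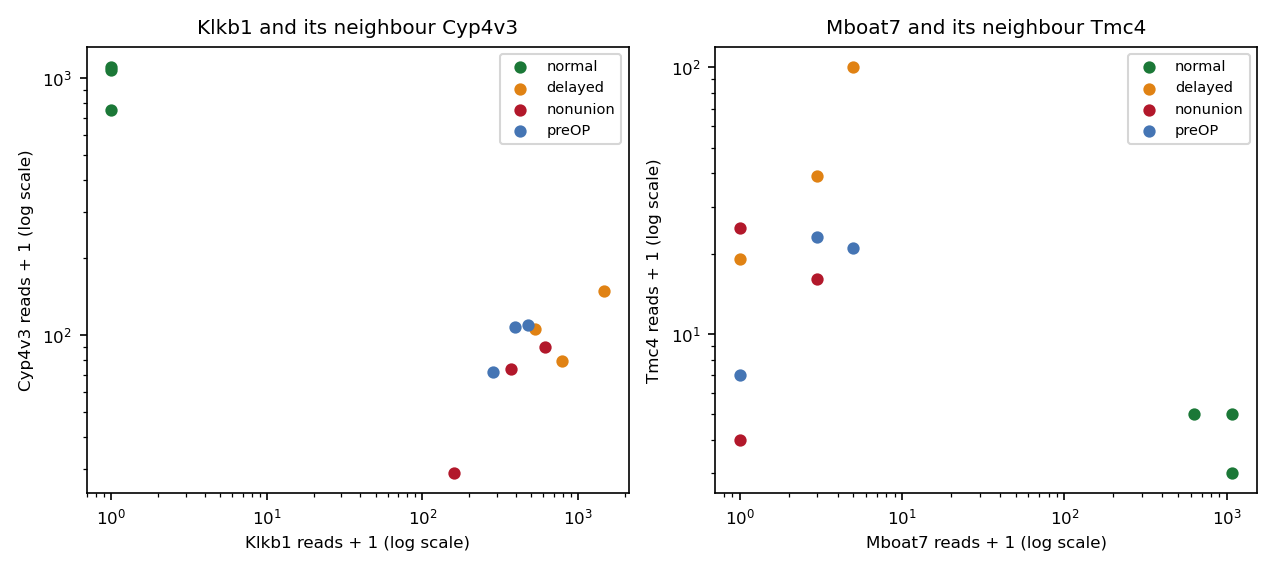
Reads plus 1 on log axes for Klkb1 against Cyp4v3 (left) and Mboat7 against Tmc4 (right), 1 point per library coloured by group. The 3 normal libraries stand alone at the left of the first panel, with 751 to 1098 Cyp4v3 reads, and at the right of the second, with 2 to 4 Tmc4 reads.

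Cyp11b1 encodes the hydroxylase of the last step of glucocorticoid synthesis in the adrenal cortex. Its transcript NM_012537 (2691 bases) had 10, 9 and 9 reads in normal, 179, 280 and 384 in delayed, 206, 219 and 349 in nonunion and 161, 171 and 114 in preOP. In TPM the normal libraries stood at 0.253, 0.191 and 0.228, delayed at 3.69, 7.84 and 9.69, nonunion at 5.03, 3.29 and 8.38 and preOP at 3.02, 3.06 and 2.13. All 9 libraries outside normal were above all 3 of normal. Its reads were not whole in any of the 9 files outside normal, and no single transcript made the sum whole. With Cyp11b2 (at most 18 reads) and Cyp11b3 (at most 1 read) added, the sum was still 17.4-fold higher in delayed, 25.7-fold in nonunion and 11.1-fold in preOP than in normal, with no overlap.

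The 5 adrenal cortex markers, all measured, summed to between 0.301 and 0.918 CPM in normal hematoma and between 2.37 and 2.46 CPM in the delayed libraries. Their sum was 1.31 to 27.0 CPM for nonunion, with a median of 2.56 and the highest value in nonunion 2, whose levels are raised by its TMM factor. For bone it was 3.82 to 4.53 CPM, and Cyp17a1 was at 0 in the 9 hematoma libraries. Their part in the Cyp11b1 level was not tested. Of the 15 other genes of steroid synthesis, 8 were tested and none was called by edgeR in delayed or nonunion against normal.

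Rsph14 encodes a protein of the radial spokes that regulate the beating of cilia. Its transcript NM_001127557 (1754 bases) had 5, 16 and 9 reads in normal, 249, 212 and 224 in delayed, 148, 157 and 143 in nonunion and 263, 311 and 229 in preOP. Its TPM were 0.207, 0.577 and 0.364 in normal and ran from 3.84 to 9.79 elsewhere, without overlap. The 5 markers of ciliated epithelium, 3 of them measured, summed to 1.31 to 1.90 CPM in normal. In the other groups the sum was between 0.773 and 2.48 CPM, which overlaps normal. These levels are low, with Foxj1 at no more than 5 reads in any library, and their part in the Rsph14 level was not tested. Of 16 other genes of spokes and axoneme, 5 were tested and none was called by edgeR against normal.

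Ccdc169 encodes a coiled-coil protein. Its transcript NM_001109184 (2271 bases) had 5, 1 and 1 reads in normal, 142, 74 and 82 in delayed, 71, 70 and 43 in nonunion and 95, 84 and 76 in preOP. Its TPM were 0.153, 0.027 and 0.0303 in normal and 1.25 to 3.54 elsewhere, and the groups did not overlap. Like Cyp11b1 it was not whole in any of the 9 files, with no partner found, so part of its reads could be assigned to other transcripts. RefSeq on GRCr8 lists 14 transcripts of Ccdc169 and the deposited files hold 1.

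Sec31b encodes an outer coat subunit of the vesicles that leave the endoplasmic reticulum. Its transcript NM_001135713 (3625 bases) had 8, 2 and 4 reads in normal, 369, 533 and 67 in delayed, 44, 18 and 25 in nonunion and 75, 93 and 50 in preOP. Its TPM were 0.148, 0.0326 and 0.0731 in normal, 5.52, 10.8 and 1.22 in delayed, 0.779, 0.197 and 0.435 in nonunion and 1.02, 1.20 and 0.675 in preOP. Normal was lowest without overlap, but the nonunion libraries lay close above it. The paralog Sec31a stood at 146, 154 and 123 CPM in normal, delayed and nonunion and was not called by edgeR against normal.

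Myo5b encodes a motor that moves recycling endosomes. Its transcript NM_017083 (6075 bases) had 1, 1 and 4 reads in normal, 509, 61 and 192 in delayed, 137, 1 and 24 in nonunion and 35, 48 and 32 in preOP. Its TPM were 0.0108, 0.00954 and 0.0428 in normal and 4.42, 0.715 and 2.02 in delayed. With 1 read, nonunion 2 was as low as normal, and its 0.00637 TPM lay below all 3 normal libraries, so Myo5b did not separate normal from every other library. The paralog Myo5a, at 56.6, 47.7 and 57.1 CPM in the hematoma groups in the same order, was not called by edgeR against normal. RefSeq lists 17 transcripts for Myo5b and 20 for Sec31b, and the files hold 1 of each, so a change of transcript could not be followed.

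**Figure D3:**
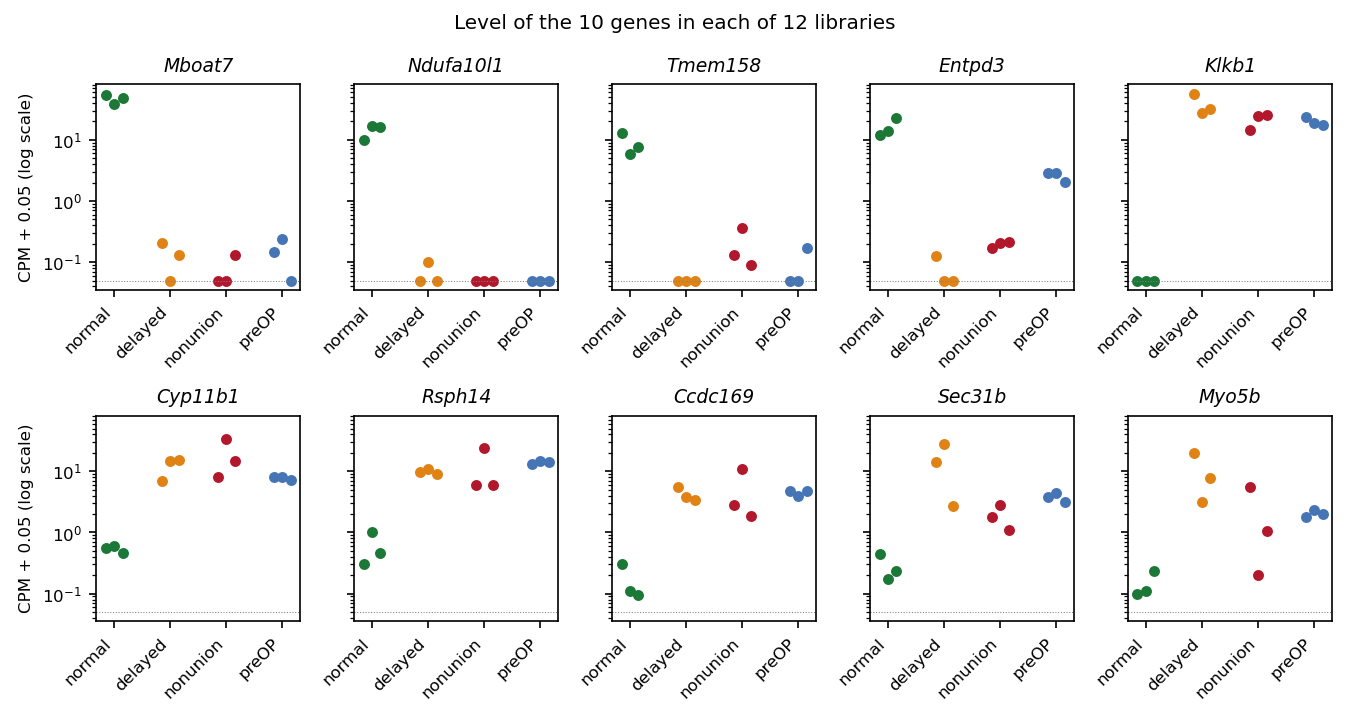
CPM plus 0.05 on a log axis for the 10 genes in each of 12 libraries, by group; the dotted line marks no reads. The 4 genes at the upper left are high in the 3 normal libraries, the other 6 are low there, and Klkb1 has no reads in normal.

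Among the groups other than normal, Entpd3 was the 1 gene of the 10 that edgeR called. In nonunion against delayed, edgeR called 0 of 12474 genes (0.0%), with 881 at an unadjusted p under 0.05, and DESeq2 called 183. None of the 10 genes was called by edgeR. Mboat7, Ndufa10l1, Tmem158 and Entpd3 had at most 4 reads in any delayed or nonunion library. They passed the filter of this fit through their reads in normal, so the test says little about them. Of the other genes among the 10, Sec31b had the largest difference (log2 fold change -3.06, SE 0.82, adjusted p = 0.432), which DESeq2 called. Klkb1 gave -0.90 (SE 0.40, adjusted p = 0.727) and Myo5b -2.22 (SE 1.06, adjusted p = 0.744). A p that misses the threshold does not show that the groups are alike, since in simulated data 16.4% of 4-fold changes were recovered in this comparison.

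Against preOP, edgeR called 28.2% of 12846 genes in delayed (12.6% higher and 15.6% lower) and 28.4% in nonunion (13.5% higher and 14.9% lower). All 10 genes passed the filter on low counts, Mboat7, Ndufa10l1 and Tmem158 through their reads in normal, and Entpd3 was the 1 gene of the 10 called in each comparison. The delayed and nonunion values compared here took part in picking the 10 genes, so their p-values are not free of that choice. Klkb1 in delayed gave 0.95 (SE 0.35, adjusted p = 0.0714), and it was called in 5 of 13 alternatives, among them DESeq2 (1.09) and without delayed 2 (1.38). Sec31b in delayed gave 1.99 (SE 0.71, adjusted p = 0.0567) and was called by DESeq2 (2.09), with its size factors (2.09) and without delayed 3 (2.57), and Myo5b gave 2.35 (SE 0.94, adjusted p = 0.0869) and was called in 4 of 13, among them DESeq2 (2.50) and without delayed 2 (3.00). Cyp11b1 in nonunion gave 1.28 (SE 0.48, adjusted p = 0.0706) and was called by DESeq2 (1.38) and without nonunion 1 (1.72). Rsph14 gave -0.50 (SE 0.56) in delayed and -0.23 (SE 0.57) in nonunion, which became -1.08 without nonunion 2. Ccdc169 gave -0.08 (SE 0.65) and 0.17 (SE 0.66), and the latter became -0.80 without nonunion 2.

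The levels of Cyp11b1, Ccdc169 and Rsph14 in nonunion 2 depended on scaling. With TMM, the highest of the 9 libraries outside normal was 4.91, 6.07 and 4.13 times the lowest. Scaled to all reads without TMM, those ratios were 2.88, 2.76 and 2.52, while that of Klkb1 went from 3.85 to 10.1. The TMM factor of nonunion 2 is 0.2668, so its levels are raised by that scaling.

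Such gaps were rare. A feature was counted as set apart when all 3 libraries of a group lay at least 4-fold, on log2(CPM + 0.5), above or below all 9 other libraries. For normal, 29 of 17379 features (0.167%) were higher and 9 (0.0518%) lower, for preOP 204 (1.17%) higher and 52 (0.299%) lower, and for delayed and nonunion 0 in either direction. Of the 10 genes, 6 met this against all 9 libraries, which for the 6 hematomas restates how they were picked. The gap, in log2, was 5.82 for Mboat7, 4.25 for Ndufa10l1, 2.97 for Tmem158, 4.92 for Klkb1, 2.81 for Cyp11b1 and 2.10 for Rsph14. Just outside lay Entpd3 at 1.90 and Ccdc169 at 1.60, then Sec31b at 0.77 and Myo5b at -0.06, where libraries overlap. These sizes depend on the scale: by TPM the gap of Cyp11b1 was 1.804, under 4-fold, and that of Klkb1 2.63. With a pseudocount of 0.1 or 1 CPM in place of 0.5, Klkb1 had 7.20 or 3.97 and Ndufa10l1 6.06 or 3.39, and 8 or 5 of the 10 genes passed 4-fold.

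**Figure D4:**
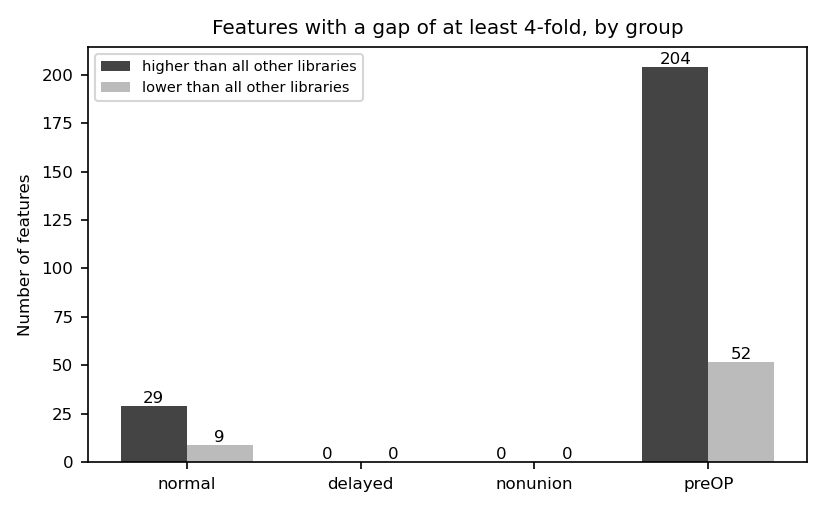
Number of features for which all 3 libraries of a group lie at least 4-fold above (dark) or below (light) all 9 other libraries. Normal has 29 above and 9 below, preOP 204 and 52, and delayed and nonunion have none.

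The features most like the 10 genes, by size of this gap over the 12 libraries, were Panx3 (5.71), RT1-A2 (3.24), Ier5l (3.21), RT1-CE10 (3.19), Anxa8 (3.14) and Rnase3 (3.13) among those higher in normal. Among those lower were Cpg1 (2.59), Nphs1 (2.32), Kcnmb3 (2.17), NM_001108910 (2.05), Oprk1 (2.02) and Chd5 (2.01). Of the 32 features set apart that are not among the 10 genes, 18 had whole reads in all 9 files outside normal. The share over all features was not counted, so 18 cannot be read as many or few. Whole reads also say little where reads outside normal were few, as for Panx3 (at most 8). For 2 of the 32 features, as for Mboat7 and Ndufa10l1, a partner made every fractional file whole. One was Hmgn5 with Hmgn5b, chosen here after its values were seen, in which Hmgn5 took 61.8% to 76.7% of the pair's reads in normal and 0 to 13.2% elsewhere while the sums overlapped.

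All 12 files list the same 18321 transcripts with the same lengths, and each of the 10 genes has 1 row. RefSeq on GRCr8 lists 3 transcripts for Mboat7, 2 for Entpd3 and 4 for Rsph14, so for these too a change of transcript could not be followed in full. The commonest difference between length and effective length, which follows fragment length, was 157.18 to 191.57 bases in normal and 194.35 to 254.63 elsewhere, without overlap. This difference and the normal group cannot be told apart, and its part in the division of reads was not tested. Of 11509 transcripts over 1500 bases, 0 showed a different inferred trimming between files. The share of whole read numbers was 82.0% to 83.3% in normal and 82.1% to 84.2% elsewhere, lowest in normal 1 and highest in nonunion 2. The normal files are written to 6 significant digits and the others to 6 decimals.

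The other genes of the pathways of the 10 genes were counted as lists. Over 9 lists with 152 other genes, 116 were tested against normal. In delayed, Enpp3, a surface enzyme that cleaves nucleotides, rose (log2 fold change 2.16, SE 0.55, adjusted p = 0.0478), and Kng2, the complex I subunit Ndufs7 (-1.69, SE 0.39, adjusted p = 0.0369), the tumour suppressor Cdkn2a (-4.12, SE 0.76, adjusted p = 0.0196) and the endosomal GTPase Rab11b fell. That is 5 of 116, against 7.13% of all genes, and the count was 0 without normal 1, 2 or 3 or delayed 1, 1 without delayed 3 and 12 without delayed 2. In nonunion 0 of the 116 were called by edgeR and 10 by DESeq2. The relatives of Mboat7 (Mboat1, Mboat2 and Lpcat3) and of Entpd3 (Entpd1 and Entpd2) were not called by edgeR in either comparison. Entpd1 in delayed had a log2 fold change of -1.17 (SE 0.33, adjusted p = 0.0646), and DESeq2 called it (-1.08, adjusted p = 0.0297).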

How the data were processed

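The submitters' processing notes list bcl2fastq 1.8.4, Trimmomatic, FastQC, Salmon and the build rn6. The annotation, strand setting and other versions were not given in the sources used here. Per the file headers, a deposited file lists transcript length, effective length, TPM and the estimated count of reads (an expected count, not scaled) for 18321 transcripts. The authors' TPM were used as deposited, for description only.

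Estimated counts were rounded and summed by RefSeq gene symbol, which matched 17367 transcripts and left 954 as single features. The 3 hematoma groups were tested in 1 fit of 9 libraries and comparisons with preOP in 1 fit of 12, with edgeR 4.0.16 (R 4.3.3; TMM, filterByExpr, quasi-likelihood F-tests, two-sided) and Benjamini-Hochberg adjustment over all genes, called below 0.05. Members, lists, tests and alternatives were chosen with earlier results of these data known. The fit gives members values against normal too, which are not reported because that contrast chose them. The named genes are the 10 members, their relatives, nearest measured neighbours, called or abundant list genes and the 6 largest gaps each way. SE is the absolute log2 fold change over the square root of F. A read number was called whole within 3e-06. A count of 0 allows up to 3 reads, or 0.115 to 0.462 CPM by library; such floors and binomial intervals cover counting error only. The fits were tested on simulated data, as were the gap count and the search for linked transcripts. Alternatives were other scaling, no filter, DESeq2 1.42.0, a replicate block, other sets of libraries and effective-length offsets. No library was left out.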

Additional observations from a re-analysis of the deposited data

How the results depend on the processing

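Entpd3 against preOP and Cyp4v3 against normal kept their calls in all 13 alternatives of each comparison, with log2 fold changes of -8.54 to -5.54 and -4.21 to -3.79 for Entpd3 in delayed and nonunion. For Entpd3, the delayed and nonunion values also took part in picking the gene. Counts of called genes depended on tool and libraries, and the cause was not tested. In delayed against normal, 889 genes became 433 with the replicate block, 2035 with DESeq2, 2076 without delayed 2 and nonunion 2, and 176 to 726 leaving out 1 library. Called list genes, 5, became 2 without a filter, 2 with the block, 2 with effective-length offsets, 18 with DESeq2, 26 without both libraries and 0 to 12 leaving out 1. In nonunion against normal, 296 became 148 with the block, 1311 with DESeq2 and 23 to 159 leaving out 1, and list genes, 0, became 10 with DESeq2, 2 without both libraries and 0 to 1 leaving out 1. In nonunion against delayed, 0 became 183 with DESeq2, 60 without both libraries and 0 to 1 leaving out 1. Leaving out 1 library gave 2292 to 4033 calls in delayed and 2338 to 4221 in nonunion against preOP. Deviations from the group means in same-numbered libraries of 2 groups had correlations of -0.167 to 0.167. With 3 libraries per group this cannot show whether libraries of different groups share an animal.

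The sign of uncalled values changed. In nonunion against delayed, Cyp11b1 became -0.046, Ccdc169 -0.99 and Rsph14 -0.72 without both libraries, Ccdc169 -0.063 and Rsph14 -0.15 with the block, and leaving out 1 library gave -0.18 to 0.91, -0.93 to 0.61 and -0.80 to 0.53. Ccdc169 in delayed against preOP became 0.045 with size factors, 0.045 with DESeq2, 0.13 with only the groups compared, 0.19 without both libraries and -0.19 to 0.21 leaving out 1; size factors moved the median of all genes by 0.127 there. In nonunion against preOP, Ccdc169 became -0.06 with the block, -0.80 without both libraries and -0.80 to 0.66 leaving out 1, Rsph14 ran from -1.08 to 0.17, and Myo5b was -0.64 with the block and -1.48 to 0.84 leaving out 1. Ndufa10 against normal became -0.47 in delayed without both libraries, with -0.53 to 0.60 in delayed and -0.40 to 0.18 in nonunion leaving out 1.

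Features lower in normal, 9, became 44 with a pseudocount of 0.1, 4 with 1, 5 without TMM and 9 to 23 leaving out 1 (23 without normal 1). Those higher in normal ran from 29 to 44. Delayed had 1 higher by TPM and 0 to 7 lower, and nonunion 0 to 2 higher, leaving out 1. PreOP had 15 lower without TMM, 13 by TPM, 52 to 100 lower and 205 to 272 higher leaving out 1. The members past a 4-fold gap numbered 6 to 8 leaving out 1, 8 with a pseudocount of 0.1, and 5 with 1 or by TPM. Most calls of single list genes against normal in delayed were lost when 1 library was left out.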
